A study of Homo sapiens with 4 samples.

Results

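The 7 genes of the Cip/Kip and INK4 inhibitors of cyclin-dependent kinases (CDKs) and the 3 genes of the retinoblastoma (RB) pocket proteins were examined in UMSCC74B, an established cell line from a squamous carcinoma of the head and neck. They were chosen by name from the tables of gene counts, entries of the same name being summed, and make up 10 of the 29655 distinct gene names listed. The Cip/Kip genes are CDKN1A (p21), CDKN1B (p27) and CDKN1C (p57). The INK4 genes are CDKN2A (p16 and, from another first exon, p14ARF), CDKN2B (p15), CDKN2C (p18) and CDKN2D (p19). The pocket protein genes are RB1, RBL1 (p107) and RBL2 (p130). The data are RNA-seq counts from 2 control libraries, with the WT genotype label and control shRNA plasmid, and 2 libraries labelled PRMT5 KD, given PRMT5 shRNA plasmid. All were collected 72 h after transfection as the labels have it, while the paper's methods describe lentiviral particles, and the labels do not say whether replicates came from separate cultures. PRMT5 is an arginine methyltransferase, and FXR1, the RNA-binding protein with which the study is concerned, is methylated on arginines. The comparison asks how p21 mRNA and the mRNAs of the other brakes on the G1 to S step differ when PRMT5 is targeted.

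As background, progression from G1 into S phase depends on cyclin D with CDK4 or CDK6 and on cyclin E with CDK2, which phosphorylate the pocket proteins. Unphosphorylated pocket proteins bind E2F transcription factors and hold down the genes for DNA replication. INK4 proteins bind CDK4 and CDK6, whereas Cip/Kip proteins act more widely and are potent inhibitors of cyclin E and cyclin A complexes with CDK2. In squamous carcinomas of the head and neck, loss of CDKN2A is among the most frequent lesions. CDKN1A is controlled by transcription and also by the turnover of its mRNA. The paper cites earlier work of its authors in which FXR1 bound p21 mRNA and lowered its stability, which was not examined here.

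The libraries held 52185289 to 65964558 estimated counts, 71.5% to 81.3% of them on protein-coding genes. Ribosomal RNA took 15.3% and 14.2% of the counts in control and 26.2% and 18% in the libraries labelled PRMT5 KD. The targeted transcript went against the label: PRMT5 had 94.3 and 84.3 CPM (read counts normalised to library size, with TMM factors) in control and 132 and 150 CPM in the others. On the log2 scale the difference was 0.66 (standard error, SE, 0.12, and Benjamini-Hochberg FDR = 0.00549 by edgeR), and without control replicate 2 the call was lost (0.58, FDR = 0.0665). Counts do not measure PRMT5 protein, which the study assessed by immunoblot, and those measurements were not used here. Every direction is by the library labels. FXR1 mRNA differed by 0.27 on the log2 scale (FDR = 0.0723) and was not called, although a correction for length and GC content gave 0.53 (FDR = 0.00691) and a call. The squamous label was checked against 7 squamous epithelial markers, whose summed level was 6.75 and 7.38 CPM in control and 3.45 and 6.45 CPM under the KD label. No marker of the 7 was at 0 in every library, but KRT5 and KRT6A had at most 4 counts and 1 count in any library, CDH1 at most 9 and KRT14 at most 22, and TP63 alone passed the filter on low values. The 5 fibroblast markers summed to 527 and 581 CPM in control and to 85.3 and 93.1 CPM under the KD label, and 5 of 5 were called lower. The 3 endothelial markers summed to 10.1 and 14.0 CPM against 1.01 and 0.460 CPM. The 4 leukocyte markers summed to 94.8 and 113 CPM against 153 and 170 CPM, nearly all of it CD68, with CD3E at 0 throughout. These markers moved with the groups, and their part in the differences reported for the inhibitors and pocket proteins was not tested. The squamous sum lay below the fibroblast sum in all 4 libraries, so the markers did not bear out the squamous label. The identity of the cells was not examined further.

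Promoter sequence was examined for 3 genes whose mRNA was called higher, because E2F motifs mark promoters that the pocket proteins can occupy and GC boxes are the classical elements of the p21 promoter. RefSeq (GRCh38.p14) held 13 promoter entries for 9 of the 10 genes, and the 250 bases before each start were searched on both strands. The E2F motif TTTNNCGC was in 5.92% of all 35116 windows of that length, and the GC box GGGCGG in 42.6%. The RBL1 window at chr20:37095998-37096247 on the minus strand held 2 E2F motifs, shown in capitals, beginning 26 and 16 bases before the start. Apart from RBL1, CDKN2D was the only gene of the 9 with an E2F match, TTTCACGC at 216 bases before its start.
RBL1: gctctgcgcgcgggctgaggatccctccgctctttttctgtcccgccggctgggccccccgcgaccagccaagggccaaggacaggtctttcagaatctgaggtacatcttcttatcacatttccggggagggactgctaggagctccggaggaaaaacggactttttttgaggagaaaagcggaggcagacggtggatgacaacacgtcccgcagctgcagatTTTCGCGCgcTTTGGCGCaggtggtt
The CDKN1A window at chr6:36678464-36678713 on the plus strand held no E2F match and 4 GC boxes in capitals, starting 104, 94, 45 and 40 bases before the start, the last pair overlapping.
CDKN1A: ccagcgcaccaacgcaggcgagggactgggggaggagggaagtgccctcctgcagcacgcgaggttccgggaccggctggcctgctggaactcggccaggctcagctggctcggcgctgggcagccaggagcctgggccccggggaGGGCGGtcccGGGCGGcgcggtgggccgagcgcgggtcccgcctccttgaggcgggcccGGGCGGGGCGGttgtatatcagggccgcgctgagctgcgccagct
The second of the CDKN2C entries, at chr1:50968456-50968705 on the plus strand, held 5 GC boxes in capitals and no E2F match, and is shown as the entry with the most, while the first held 0 and the third 1.
CDKN2C: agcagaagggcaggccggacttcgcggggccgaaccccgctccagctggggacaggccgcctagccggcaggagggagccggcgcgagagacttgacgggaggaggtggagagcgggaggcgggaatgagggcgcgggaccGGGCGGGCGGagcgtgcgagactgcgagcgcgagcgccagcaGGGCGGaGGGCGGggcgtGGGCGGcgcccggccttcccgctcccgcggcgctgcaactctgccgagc
GC boxes were also found in windows of genes that were not called or had 0 counts, with 1 for CDKN1B, 2 for CDKN2B, 2 for CDKN2D and 1 in an entry of CDKN2A. A further motif, the CHR element TTTGAA, was in 13.3% of all windows and in none of the 13 windows of these genes. A match describes letters and not binding, and the RB1 entry lies inside the gene and not at its first exon.

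Of the 10 genes, 8 passed the filter on low values (0.5 RPKM in both libraries of either group) and were among the 11894 protein-coding genes tested. Calls required an FDR under 0.05 together with a log2 fold change of 0.5 or more in either direction. CDKN1A, CDKN2C and RBL1 rose in the libraries labelled PRMT5 KD and CDKN1C fell, while CDKN1B, CDKN2D, RB1 and RBL2 were not called. Thus 3 of 8 were called higher, where 21.2% of all genes tested were, and 1 of 8 lower, where 24.4% were. The total of 4 of 8 called stands beside 45.5% of all genes. The groups did not overlap for 8 of 8, against 80.5% of all genes tested. The median log2 fold change of the 8 was 0.27, and that of all genes tested was -0.01. Calls differed within each family, with 1 Cip/Kip gene higher and 1 lower, 1 INK4 gene higher, and 1 pocket protein gene higher.

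**Figure D1:**
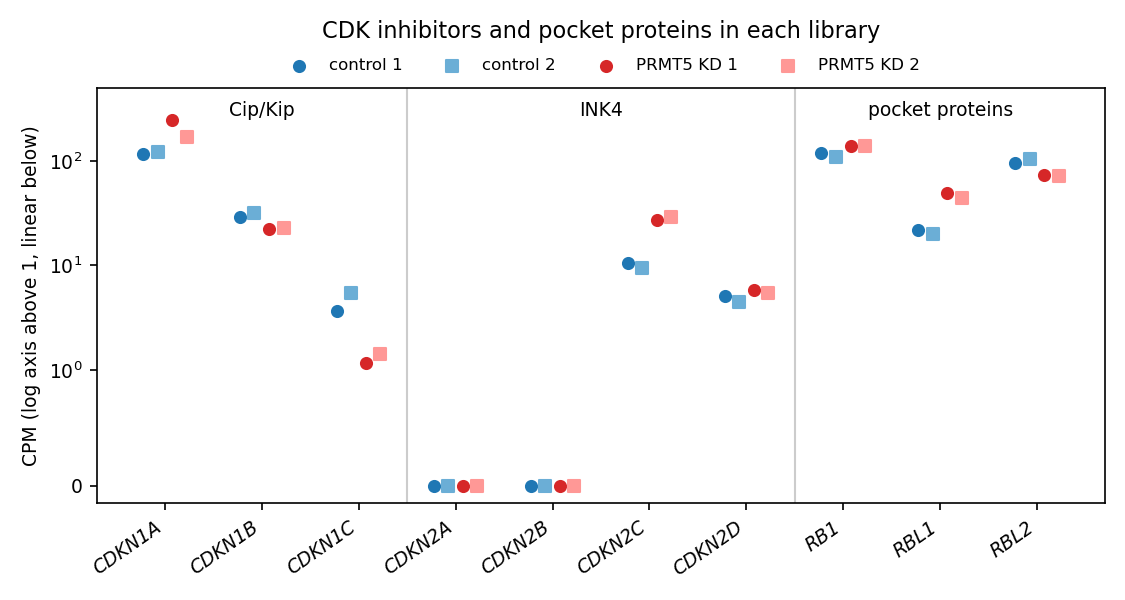
TMM-scaled CPM (vertical axis, logarithmic above 1 and linear below) of the 10 genes in each of the 4 libraries, with 1 point per library and families divided by grey lines. CDKN2C and RBL1 stand higher and CDKN1C lower in the KD-labelled libraries, and CDKN2A and CDKN2B lie at 0 throughout.

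CDKN1A encodes p21, which inhibits CDK2 complexes and binds PCNA, and lies on chromosome 6 (plus strand, GRCh38) from 36676460 to 36687337. The control libraries had 4664 and 6177 counts and the KD-labelled libraries 11708 and 8163, or 118 and 124 CPM against 246 and 171 CPM. Both KD-labelled libraries were above both controls, but they lay far apart from each other, at 208 ± 53.3 CPM (SD, n = 2) against 121 ± 4.02 CPM (SD, n = 2). The log2 fold change was 0.79 (SE 0.18, 95% interval 0.34 to 1.24, FDR = 0.0130), a 1.73-fold higher level. The call was lost at a fold threshold of 1 on the log2 scale, without control replicate 1 (0.76, FDR = 0.0910) and without control replicate 2 (0.83, FDR = 0.0853). Leaving out either KD library moved the value to between 0.53 and 1.03 and kept the call. KD replicate 1, the higher library, was also the library with 26.2% ribosomal RNA, whose part in the value was not tested. In these bulk libraries a change in RNA per cell and a change in the share of cells that express a gene cannot be told apart.

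The study also measured p21 mRNA by qRT-PCR, in UMSCC74B cells treated with inhibitors of PRMT5 and PRMT1 rather than with PRMT5 shRNA. The primers are shown because they fix which part of the transcript that assay reads. The P21-F primer matched chr6:36686964-36686984 and the P21-R primer chr6:36687048-36687068 of GRCh38, both in the 3′ UTR within exon 3 of 3.
P21-F: CGGAACAAGGAGTCAGACATT
P21-R: AGTGCCAGGAAAGACAACTAC
The 105-base product is found in 4 of the 8 annotated CDKN1A transcripts and in no other gene, whereas the RNA-seq count sums over the gene. The qRT-PCR values were not used here.

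CDKN1B encodes p27, the inhibitor of cyclin E with CDK2 that is degraded at the entry into S phase, and lies on chromosome 12 (plus strand) from 12685498 to 12722369. Control libraries had 1152 and 1575 counts and KD-labelled libraries 1075 and 1097, or 29.1 and 31.5 CPM against 22.6 and 23.0 CPM. Both KD-labelled libraries were below both controls. The log2 fold change of -0.41 (SE 0.12, 95% interval -0.71 to -0.12, FDR = 0.0280) passed the FDR but not the fold threshold. It no longer passed the FDR on total counts alone (-0.23, FDR = 0.165), with the length and GC correction (-0.22, FDR = 0.183), with filterByExpr (FDR = 0.0526) or no filter (FDR = 0.0540) on low counts, under the replicate block (FDR = 0.0569), or without control replicate 1 (FDR = 0.0982), control replicate 2 (FDR = 0.185) or KD replicate 1 (FDR = 0.0601).

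CDKN1C encodes p57, an imprinted inhibitor known for cell cycle exit in development, and lies on chromosome 11 (minus strand) from 2883213 to 2885775. It had 144 and 274 counts in control against 55 and 67 under the KD label, or 3.64 and 5.48 CPM against 1.16 and 1.40 CPM. The groups were well separated, though the control libraries differed between themselves. This was a log2 fold change of -1.84 (SE 0.30, 95% interval -2.57 to -1.11, FDR = 0.00338), a 3.57-fold lower level. CDKN1C passed the filter only through the control group, where it was higher. With the union exon length used by the filter, KD replicate 1 was below 0.5 RPKM. It was also called lower with filterByExpr (-1.77) and with no filter on low counts (-1.78). CDKN1C thus fell where CDKN1A of the same family rose.

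CDKN2C encodes p18, which binds CDK6 and CDK4, and lies on chromosome 1 (plus strand) from 50960745 to 50974634. Control libraries had 421 and 470 counts and KD-labelled libraries 1284 and 1405, or 10.6 and 9.40 CPM against 27.0 and 29.4 CPM. The replicates lay close together in each group. This was a log2 fold change of 1.49 (SE 0.14, 95% interval 1.15 to 1.83, FDR = 0.000556), a 2.82-fold higher level and the largest rise among the 8 genes tested. CDKN2D, which encodes p19 and lies on chromosome 19 (minus strand) from 10566460 to 10569059, had 5.06 and 4.44 CPM in control and 5.87 and 5.44 CPM under the KD label. Its log2 fold change of 0.25 (SE 0.20, 95% interval -0.22 to 0.72, FDR = 0.310) did not pass the test, and the interval extends past the fold threshold in the upward direction. The value was 0.08 with the length and GC correction and 0.43 on total counts alone, and passed the FDR in neither.

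CDKN2A (chromosome 9, minus strand, 21967752 to 21995301) and CDKN2B (chromosome 9, minus strand, 22002903 to 22009305) had 0 counts in each of the 4 libraries. A count of 0 allows up to 3 counts per library, or 0.0600 to 0.0758 CPM, which covers counting error only. These genes did not pass the filter, and no fold can be given. MTAP, their neighbour, was also at 0 in all 4 libraries. MTAP clears methylthioadenosine, a metabolite that inhibits PRMT5. CDKN2B-AS1, the antisense RNA of the locus, had 4 counts in control replicate 2 and 0 in the other libraries. Farther out, KLHL9, with its midpoint at -649 kb from that of CDKN2A, had 3142 to 4439 counts over the 4 libraries, and DMRTA1, on the other side, had 398 to 510 counts over the 4 libraries. IFNE, on the KLHL9 side, went from 702 and 647 counts to 60 and 102 (log2 fold change -3.17). Of 36 protein-coding names within 4000 kb, 12 were at 0 in every library, several interferon genes among them, and 13 reached 100 counts in at least 1 library. Of 12 named neighbours, 7 were tested and 4 called, beside 45.5% of all genes tested, so that the count is near that of genes at large. Among them 1 was called higher (ELAVL2, 0.86, a call lost without control replicate 2) and 3 lower (IFNE, FOCAD at -1.41, MLLT3 at -0.52, a call lost in several other fits and without control replicate 1, control replicate 2 or KD replicate 1). Counts cannot tell a gene that is not transcribed from a gene that is not in the genome.

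**Figure D2:**
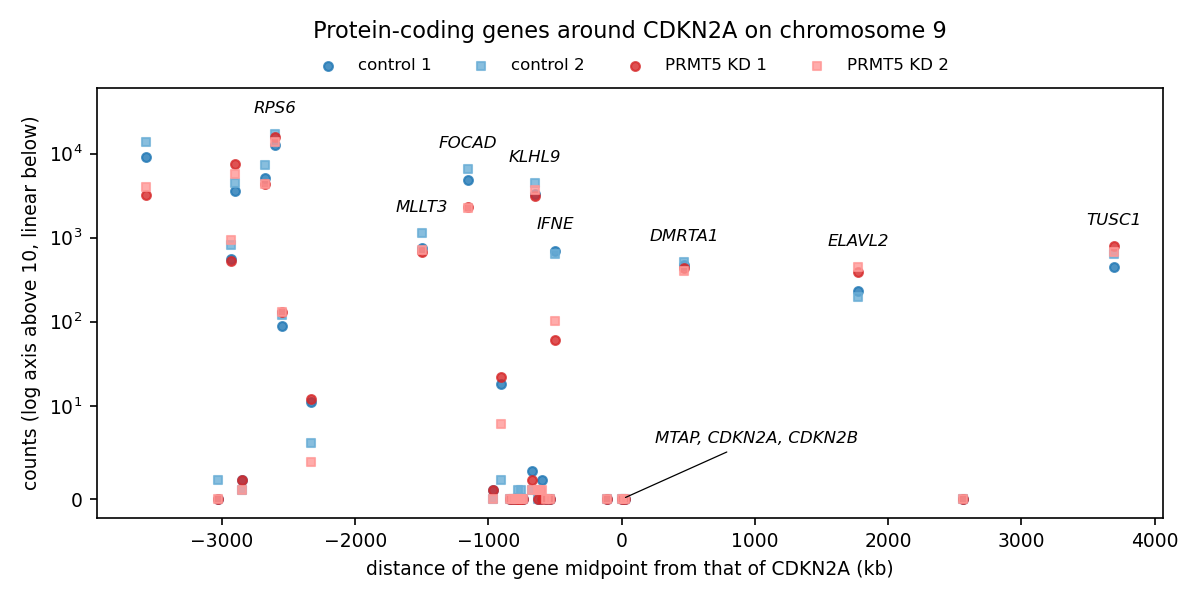
Counts in each of the 4 libraries (vertical axis, logarithmic above 10 and linear below) of the protein-coding genes within 4000 kb of CDKN2A, against the distance between gene midpoints in kb (horizontal axis). MTAP, CDKN2A and CDKN2B lie at 0 in all 4 libraries, while KLHL9 and DMRTA1 to either side have at least 398 counts in every library.

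RB1 encodes the retinoblastoma protein, the partner of the activating E2Fs, and lies on chromosome 13 (plus strand) from 48303744 to 48599436. Control libraries had 4694 and 5520 counts and KD-labelled libraries 6664 and 6630, or 119 and 110 CPM against 140 and 139 CPM. Both KD-labelled libraries were above both controls, but the log2 fold change of 0.28 (SE 0.11, 95% interval 0.03 to 0.54, FDR = 0.0625) did not pass the test. It passed the FDR, still under the fold threshold, on total counts alone (0.46, FDR = 0.0119), with filterByExpr (0.35, FDR = 0.0342) and with no filter on low counts (0.34, FDR = 0.0423).

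RBL1 encodes p107, which partners the repressive E2F4 and is known as an E2F target itself, and lies on chromosome 20 (minus strand) from 36996349 to 37095997. Control libraries had 858 and 1003 counts and KD-labelled libraries 2371 and 2137, or 21.7 and 20.1 CPM against 49.9 and 44.7 CPM. The gap between the groups was several times the gap between replicates. The log2 fold change was 1.18 (SE 0.12, 95% interval 0.88 to 1.48, FDR = 0.000764), a 2.27-fold higher level. This is the gene whose promoter window carries the E2F letters TTTCGCGC and TTTGGCGC given above. CDKN2D also had an E2F match and was not called, while CDKN1A and CDKN2C had none and were called higher. The part of these motifs in the changes was not tested.

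RBL2 encodes p130, the pocket protein of quiescent cells and of the DREAM complex, and lies on chromosome 16 (plus strand) from 53433977 to 53491648. Control libraries had 3758 and 5213 counts and KD-labelled libraries 3519 and 3464, or 95 and 104 CPM against 74.0 and 72.5 CPM. Both KD-labelled libraries were below both controls. The log2 fold change of -0.44 (SE 0.11, 95% interval -0.71 to -0.18, FDR = 0.0151) passed the FDR but not the fold threshold. It no longer passed the FDR on total counts alone (-0.27, FDR = 0.0813), with the length and GC correction (-0.30, FDR = 0.0593), or without control replicate 1 (-0.50, FDR = 0.0555) or 2 (-0.37, FDR = 0.122).

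**Figure D3:**
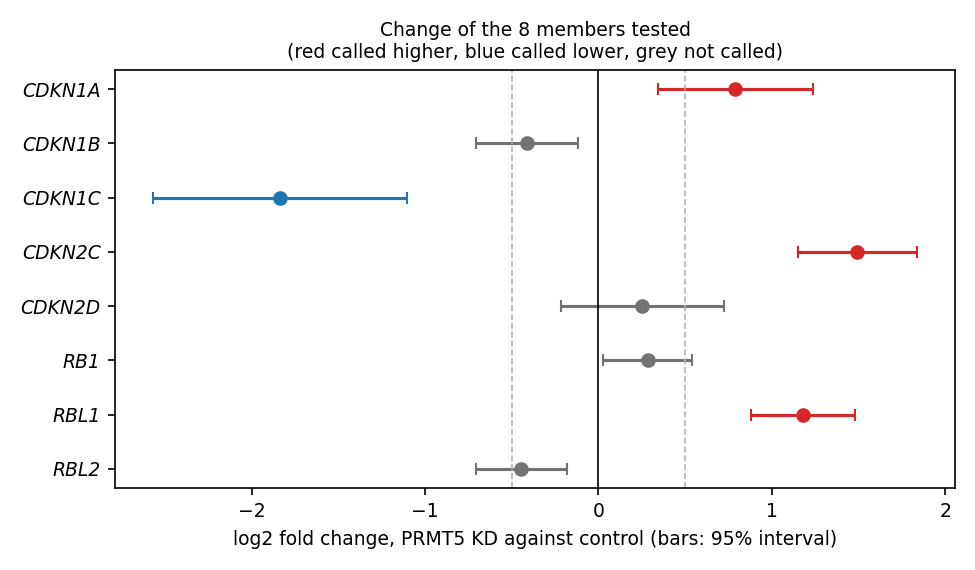
Log2 fold change of the 8 genes tested (horizontal axis, KD label against control) with 95% intervals from edgeR as bars and dashed lines at the fold threshold of 0.5 in each direction. CDKN1A, CDKN2C and RBL1 are called higher at 0.79, 1.49 and 1.18, CDKN1C is called lower at -1.84, and the other 4 are not called.

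p21 was then set against each other gene within a library, as the log2 ratio of counts (1 count added), which does not depend on the scaling between libraries. The difference between the KD-labelled and the control ratio was 1.18 against CDKN1B, 2.56 against CDKN1C, 0.51 against CDKN2D, 0.48 against RB1 and 1.21 against RBL2, so CDKN1A was higher relative to these 5. It was -0.73 against CDKN2C and -0.41 against RBL1, so CDKN1A was lower relative to these genes, although its own level was higher. The groups did not overlap in 7 of 7 ratios, which share the same CDKN1A counts. No share was computed for ratios of CDKN1A to genes at large, so this count has no background to be read against. In an exact two-sided permutation test over libraries each ratio had p = 0.333 (0.333 after Benjamini-Hochberg adjustment over the 7), the smallest p that 2 against 2 libraries allow. When a library was left out, the difference against RB1 ranged from 0.22 to 0.74, that against CDKN2D from 0.30 to 0.72, that against CDKN2C from -1.05 to -0.40 and that against RBL1 from -0.60 to -0.23. With CDKN2A and CDKN2B at 0, no ratio was formed for them.

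**Figure D4:**
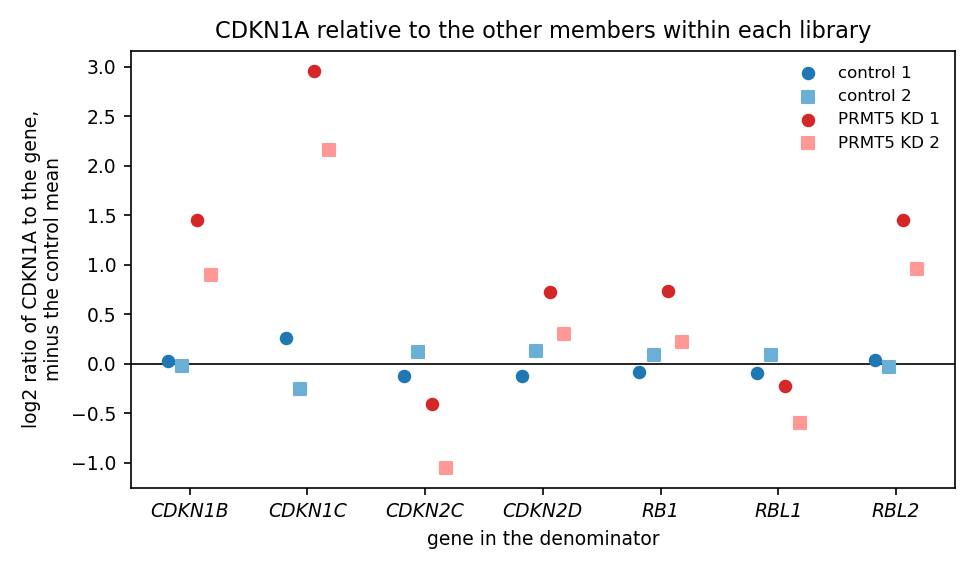
Log2 ratio of CDKN1A counts to the counts of each of 7 other genes (horizontal axis) in each library, minus the mean of the 2 control libraries. Points of KD-labelled libraries lie above control for 5 genes and below control for CDKN2C and RBL1.

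Levels were compared between genes per length, as TMM-scaled CPM divided by the length of the canonical transcript in kilobases (RPKM). In control the order was CDKN1A (57.0 ± 1.90 RPKM, SD, n = 2), RB1 (24), RBL2 (20.5), CDKN1B (12.6), CDKN2C (10.1), RBL1 (3.67), CDKN2D (3.33) and CDKN1C (2.57). RBL1 and CDKN2D overlapped between libraries, and the other neighbours in that order did not. Under the KD label CDKN1A stayed first at 98.5 ± 25.2 RPKM (SD, n = 2), and CDKN2C, at 28.3 RPKM, overlapped RB1, at 29.2. RBL2 (15.1), CDKN1B (9.45), RBL1 (8.32), CDKN2D (3.97) and CDKN1C (0.722) followed. With union exon length, which was chosen after seeing the data, CDKN1A, RB1 and RBL2 were again the top 3 in control and CDKN1C again last, whereas RBL1 (3.51 RPKM), CDKN2C (3.32) and CDKN1B (3.28) changed places.

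Within families, shares of the per-length level were taken. CDKN1A made up 79.8% and 78.3% of the Cip/Kip level in control and 92.1% and 88.7% under the KD label, and CDKN1B 17.3% and 17.5% against 7.42% and 10.5%. Cip/Kip mRNA was thus mostly p21 in every library. Of all inhibitor mRNA, however, CDKN1A was 66.2% and 67.0% in control and 73.8% and 64.9% under the KD label, which overlap. CDKN2C was 75.1% and 75.2% of the INK4 level in control and 86.8% and 88.6% under the KD label. Among pocket proteins RBL1 went from 7.90% and 7.33% to 16.4% and 15.2%, and RBL2 from 40.5% and 44.6% to 28.5% and 28.8%. RB1 was 51.6% and 48.1% in control and 55.0% and 56.1% under the KD label. These shares depend on the length used: with union exon length CDKN2C was 51.2% and 51.4% of the INK4 level in control, about level with CDKN2D (48.8% and 48.6%), and 69.7% and 72.9% under the KD label. CDKN1B was then 7.16% and 7.27% of the Cip/Kip level in control and 2.87% and 4.13% under the KD label. The shares are described without a test.

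The kinases and cyclins on which the inhibitors act were mostly higher. Of 9 genes, 7 were called higher and 1 lower, beside the same 21.2% and 24.4% of all genes tested, with a median log2 fold change of 1.32. CDK2, the main kinase bound by p21, had 27.4 and 23.3 CPM in control and 89.4 and 104 CPM under the KD label (1.93, SE 0.14, FDR = 0.000327). CCNE2 (3.19), CCNA2 (2.12), CCNE1 (1.60) and CCND1 (1.32), which encode cyclins E2, A2, E1 and D1, rose with CDK4 (0.70). CCND2, for cyclin D2, fell (-2.40). It passed the filter only through control, with 0.113 RPKM by union exon length under the KD label. CCND2 was not among the 8 genes of this list tested in the fit on all gene names. The CCND1 call was lost without control replicate 1 (1.19, FDR = 0.0516). CDK6 was not called (-0.21, FDR = 0.436). Per length, CDKN1A stood at 4.56 and 5.61 times CDK2 in control and at 2.91 and 1.74 times under the KD label. Thus p21 mRNA was lower relative to CDK2 mRNA even as it rose. The Cip/Kip sum over the sum of CDK2, CDK4 and CDK6 differed less, at 0.761 and 0.856 in control and 0.740 and 0.564 under the KD label. Ratios of CDKN1A to CDK4 or CDK6 alone were not formed. The INK4 sum over the sum of CDK4 and CDK6 was 0.179 and 0.164 in control and 0.239 and 0.290 under the KD label. These ratios between genes were given no test.

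Among E2F and DP partners of the pocket proteins, 7 of 10 were called higher and 1 lower, beside 21.2% and 24.4% of all genes tested, with a median of 0.91. The activating E2F2 (3.13) and E2F1 (2.29), the repressive E2F8 (2.47) and the dimer partner TFDP1 (1.29) rose. E2F2 passed the filter only through the KD-labelled group, where it was higher, with 0.423 RPKM by union exon length in control. TFDP2 was called lower (-0.55), a call lost without control replicate 2 (-0.45, FDR = 0.0803), on total counts alone (-0.37), with filterByExpr (-0.49) and with the correction for length and GC content (-0.24). Per length, the pocket protein sum was 2.32 and 2.57 times the sum of E2F1, E2F2 and E2F3 in control and 0.918 and 0.986 times under the KD label. Of 6 genes for the MuvB core and its MYB partner, 5 were called higher, beside 21.2% of all genes tested, with a median of 1.23. The largest rises were those of MYBL2 (3.10), the MYB partner, and LIN9 (2.05), of the core. The core, and not MYBL2, joins p130 or p107 in the DREAM complex, and the number called varied between fits. Of 18 E2F target genes of DNA replication, 18 were called higher with a median of 2.01, and 18 were called in each of 14 other fits. CDC25A, a phosphatase that activates CDK2, rose by 3.53, RRM2, a subunit of ribonucleotide reductase, by 3.35, and the licensing factor CDT1 by 2.93, all on the log2 scale. CCNE1 and CCNE2 are on this list and on that of the cyclins. Of 8 RB1 phosphatase and binding partner genes, 3 were called higher, namely SUV39H1 (1.53), RBBP8 (1.29) and HDAC2 (0.63), beside 21.2% of all genes tested, and 5 were on total counts alone.

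**Figure D5:**
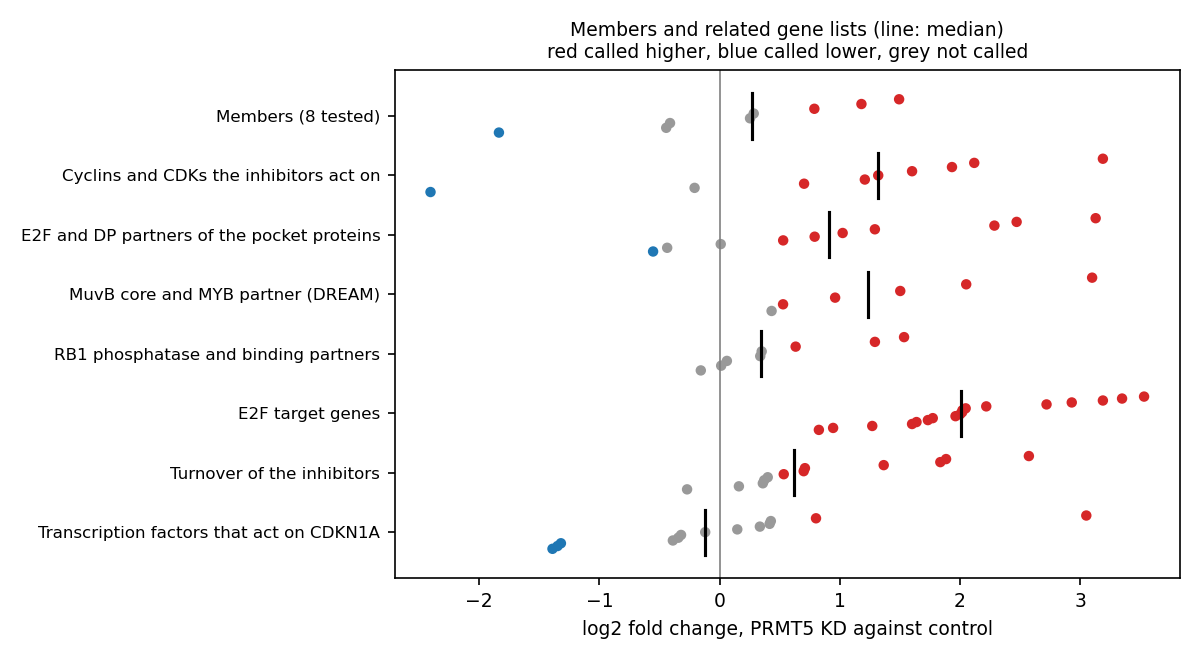
Log2 fold change (horizontal axis, KD label against control) of each tested gene in the list named on the vertical axis, with the list's median as a black bar, red points called higher, blue lower and grey not called. The E2F targets are called higher in 18 of 18 cases, while the transcription factors that act on CDKN1A lie on either side of 0.

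The 14 transcription factors that act on CDKN1A were not split into those that raise and those that lower it. Pooled values thus give no direction for p21. Of the 14, 13 were tested, 2 were called higher and 3 lower, beside 21.2% and 24.4% of all genes tested. Their median of -0.12 ranged from -0.16, without control replicate 1 or KD replicate 2, to 0.10 with the length and GC correction, and was also above 0 on total counts alone (0.06), with filterByExpr (0.08) and with no filter on low counts (0.07). KLF4 rose by 3.05 on the log2 scale, from 7.48 and 6.44 CPM to 45.5 and 69.7 CPM. MYC (0.80) was also called higher, a call lost without control replicate 2 (0.59). FOXO1 (-1.39), TP63 (-1.35) and TFAP2A (-1.32) fell, and the TP63 call was lost without control replicate 1 (-1.46) or 2 (-1.21). TP63 passed the filter only through control, with 0.318 RPKM by union exon length under the KD label. The number called higher was 1 without control replicate 2 and 4 without KD replicate 2 or with the length and GC correction.

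Genes for the turnover of the inhibitors were called higher in 7 of 12 cases and lower in 0, beside 21.2% and 24.4% of all genes tested, with a median of 0.62. SKP2 and CKS1B, which together deliver p27 for degradation, rose by 1.88 and 1.84, and DTL, the adaptor that delivers p21 bound to PCNA, rose by 2.57. CDC20, the activator of the anaphase-promoting complex, was called higher at 1.37, a call lost without either KD library (FDR = 0.0691 and 0.130). The number called higher in this list was 5 without KD replicate 2 and 10 on total counts alone.

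The genes whose profile over the 4 libraries was most like that of CDKN1A, by the root mean square difference of centred log2 CPM, were TMEM159 (0.0280), EBI3 (0.0420) and BET1 (0.0472). TMEM159 had 23.6 and 26.0 CPM in control and 51.2 and 35.9 CPM under the KD label. This likeness over 4 libraries was given no test.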

How the data were processed

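Total RNA of UMSCC74B cells was sequenced after directional library preparation. The authors deposited estimated counts per gene, unnormalized, 1 table per library. The submitters' processing notes name FastQC, Trim Galore, STAR, Salmon, DESeq2 and GRCh38, whereas the paper's methods name FeatureCounts. Whether counting used strand was not given in the sources used here. Gene names converted to dates (28 per library, 0.150% to 0.161% of counts) were left out, and names were matched to GENCODE 44.

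Counts were rounded. Protein-coding genes with an RPKM (union exon length) of at least 0.5 in every library of a group were tested with the quasi-likelihood test of edgeR 4.0.16 (robust, TMM, R 4.3.3), and p-values were adjusted by Benjamini-Hochberg across that whole table (FDR). The thresholds were those of the paper's methods. The paper's results name a log fold change of at least 1 in either direction instead, and at 1 on the log2 scale the CDKN1A call was lost. On simulated data with 200 of 11894 genes changed, 82% were recovered at a log2 fold change of 1 and 98% at 2, and 12.2% of calls were unchanged genes. p-values measure only the spread between these libraries, which may be technical. Floors on counts cover counting error alone, since reads copied by PCR do not stand for separate molecules. Ratios were compared by exact permutation tests, over 7 ratios because CDKN2A and CDKN2B had 0 counts.

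The 10 genes and all lists were chosen with earlier results of these data known. From each list, up to 4 called genes with the largest change were named, besides upstream or partner genes fixed in the rule. Alternatives were DESeq2 1.42.0, other scalings and filters, all gene names, dispersion without robust weights, a block for replicate number, a correction for length and GC content, a higher fold threshold, and each library left out. Replicate numbers were not taken as pairs. FXR1 KD and eCLIP data were not analysed here. Of the lists, 2 transcription factors and a list of genes were left out and are not reported here.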

Additional observations from a re-analysis of the deposited data

How the results depend on the processing

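None of the 8 genes tested changed direction under the alternatives run. Among these 8, CDKN1A alone changed its call: it was lost at a fold threshold of 1 on the log2 scale, and without either control library, at 0.76 and 0.83, and leaving out 1 library at a time gave 0.53 to 1.03. PRMT5 lost its call without control replicate 2, at 0.58, with a range of 0.57 to 0.78. The number of members called higher was 2 to 3 and lower 1. Over all genes 5417 were called, 2560 at a fold threshold of 1 on the log2 scale, and 3111 to 5719 with 1 library left out, the lowest without control replicate 2. Total counts alone raised the median of all genes to 0.17 and called 61.5% of changes higher, against 46.5% with TMM. FXR1 was called at 0.53 with the length and GC correction. The replicate numbers correlated at -0.10 and are not known to pair the libraries. A replicate block called 5192 genes, and the crossed pairing, added after the data were seen, called 5481. No call on a member changed under the replicate block, although CDKN1B no longer passed the FDR. Ratios to CDKN2A and CDKN2B could not be formed, since both had 0 counts. With 2 libraries per group, a left-out library leaves a lone sample that is assumed to vary like the other group, and changes smaller than the intervals given cannot be resolved.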
